A study of Mus musculus with 2 samples.

Results

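The 10 genes described here mark successive steps of B cell development: the surrogate light chain genes Vpreb1 and Igll1, their relative Vpreb3, the recombination genes Rag1, Rag2 and Dntt, the receptor genes Cd79a, Ighm and Ighd, and Ms4a1, which encodes CD20. They were taken by name from the 34285 genes of the single-cell expression matrices of mouse molar tissue. Symbols matched 9 of them, and Vpreb1 was matched by its gene identifier (ENSMUSG00000059305), since its row carries the name Vpreb1a. The tissue was the mandibular first molar of C57BL/6J mice with what surrounds it, collected at PN15.5 (PN stands for postnatal day) and dissociated with enzymes. Mice of the Lipo-Clo group had received liposomes loaded with clodronate, a drug that kills the phagocytes that take it up, at 40 μg per g body weight into the peritoneum on PN3.5 and PN6.5, then on PN9.5 and once more on PN12.5. Mice of the Lipo-PBS group had received vehicle liposomes on the same days. The question was how the tissue differs when macrophages are depleted during root growth. Each group has 1 library, the number of mice behind it is not given in the sources used here, and so no test between conditions was possible.

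B cells arise from progenitors that rearrange their immunoglobulin genes. RAG1 and RAG2 cut the DNA and TdT, the product of Dntt, adds bases at the joints of the heavy chain. Once a heavy chain (Ighm) is made, it pairs with the surrogate light chain of VpreB and λ5 (Igll1) and with the signalling chains CD79A and CD79B as the pre-B cell receptor, the cells divide, the surrogate light chain genes and the recombination genes are turned down, and recombination resumes at the light chain loci in small pre-B cells. IgD (Ighd) and CD20 come up as the cells mature.

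On the genome several of these genes lie side by side, with no other protein-coding gene between Vpreb1 and Igll1 on chromosome 16, between Rag1 and Rag2 on chromosome 2, or between the constant genes Ighm and Ighd on chromosome 12. Of the 10 genes, 7 had a promoter entry in the RefSeq sequences of GRCm38.p6, the build of the reference used for sequences only. The 250 bases before the start of 4 of them are printed 5′ to 3′ on the coding strand, because the surrogate light chain pair, Rag1 and Vpreb3 differ from one another in stage pattern in the values that follow. They are Vpreb1 at chr16:16869256-16869505 (minus strand), Igll1 at chr16:16863986-16864235 (minus), Rag1 at chr2:101649533-101649782 (minus) and Vpreb3 at chr10:75948050-75948299 (plus). Capitals mark the motifs searched on both strands, namely CCCNNGGG (a core bound by EBF1), CAGGTG and CAGCTG (E boxes bound by E proteins), ATGCAAAT (the octamer bound by OCT factors) and TGGGAA (a core bound by Ikaros), of which CCCNNGGG and CAGCTG read the same on both strands. No 2 matches overlap in the sequences printed.
Vpreb1: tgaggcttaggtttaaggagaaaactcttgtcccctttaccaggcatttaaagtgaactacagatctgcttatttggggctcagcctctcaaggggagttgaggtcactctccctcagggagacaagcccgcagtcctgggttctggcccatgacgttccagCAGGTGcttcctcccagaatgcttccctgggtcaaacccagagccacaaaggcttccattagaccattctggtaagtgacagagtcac
Igll1: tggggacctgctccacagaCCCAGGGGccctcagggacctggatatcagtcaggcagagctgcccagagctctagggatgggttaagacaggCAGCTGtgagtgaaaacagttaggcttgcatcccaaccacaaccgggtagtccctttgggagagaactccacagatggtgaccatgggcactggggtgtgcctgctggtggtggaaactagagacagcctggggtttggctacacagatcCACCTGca
Rag1: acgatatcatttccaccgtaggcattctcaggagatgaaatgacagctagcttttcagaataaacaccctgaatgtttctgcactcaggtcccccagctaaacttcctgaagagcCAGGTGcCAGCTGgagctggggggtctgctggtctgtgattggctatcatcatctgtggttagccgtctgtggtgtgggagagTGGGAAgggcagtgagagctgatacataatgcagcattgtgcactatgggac
Vpreb3: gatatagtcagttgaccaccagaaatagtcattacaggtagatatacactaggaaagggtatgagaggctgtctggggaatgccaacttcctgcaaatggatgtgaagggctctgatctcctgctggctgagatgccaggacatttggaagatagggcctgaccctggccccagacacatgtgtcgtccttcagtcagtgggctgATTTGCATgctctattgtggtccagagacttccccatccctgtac

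The CAGGTG box was in 4 of the 7 promoters (Vpreb1, Igll1, Rag1 and Cd79a), while 17.2% of 32851 promoters of the same length hold it. In Igll1 it reads CACCTG, its reverse complement, with its first base 8 bases before the start. CAGCTG was in 2 of the 7 (Igll1 and Rag1, 13.0% of all promoters). CCCNNGGG occurred in Igll1 alone, as CCCAGGGG with its first base 231 bases before the start (11.8%), the octamer in Vpreb3 alone, reversed and 45 bases before the start (1.60%), and TGGGAA in Rag1 alone (21.6%). Rag2 and Dntt held none of these letters in the window. A match describes the sequence and is not evidence of binding in these cells.

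The matrices held 9362 (Lipo-Clo) and 9653 (Lipo-PBS) cells with 31053404 and 30537834 unique molecular identifiers (UMIs, each standing for 1 captured transcript), of which 8254 and 8261 cells were kept. Mitochondrial genes took 0.370% of UMIs in the Lipo-Clo library and 1.73% in the Lipo-PBS library, a gap between the libraries that touches the grouping of B-lineage cells described further on. Only 30 cell barcodes were found in both libraries. Clusters named from macrophage and monocyte markers held 233 Lipo-Clo and 304 Lipo-PBS cells. All intervals given are exact 95% intervals that cover counting error alone: Poisson for levels in CPM, that is UMIs of the gene per 1000000 UMIs of all genes, Clopper-Pearson for shares of cells. The UMIs of one cell are not independent, and the spread between mice was not measured.

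Of 25 clusters, 1 was B-lineage-like, with 11 of 12 B-lineage markers enriched, none of them a member of the gene set, and it is called the B lineage below. It held 469 Lipo-Clo cells, 5.68% of the library (interval 5.19 to 6.20), and 237 Lipo-PBS cells, 2.87% (2.52 to 3.25). The share was 0.99 higher on the log2 scale in Lipo-Clo (0.76 to 1.22). The members were detected in nearly all of these cells although they had been left out of the clustering. At least 1 UMI of a member was found in 469 of 469 and 236 of 237 B-lineage cells, against 561 of 7785 (7.21%) and 524 of 8024 (6.53%) cells of the other clusters. Mesenchymal cells, which should not express these genes, gave the background: 2.87% (Lipo-Clo) and 1.86% (Lipo-PBS) of them had a Vpreb3 UMI at a median depth of 3116 and 3000.5 UMIs per cell, and 0.877% and 0.358% had one of Igll1. B-lineage cells were shallower, with medians of 871 and 949 UMIs. Outside the B lineage, 49 Lipo-Clo and 33 Lipo-PBS cells carried 10 or more member UMIs, with median depths of 4140 and 4275 UMIs, and they held 40.7% and 32.0% of the member UMIs found there. Whether these cells were doublets was not tested beyond the doublet scores.

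Within the B lineage, subclusters formed without the members fell into 4 populations. Dividing cells (138 Lipo-Clo and 53 Lipo-PBS), led by histone genes and Top2a, a DNA topoisomerase of dividing cells, were given no stage name, since 3 of 10 precursor markers and 1 of 18 later markers stood above the mean of the subclusters. Precursor-stage-like cells (195 and 96) came from 2 subclusters with 10 and 9 of the 10 precursor markers and 1 and 6 of the 18 later markers above that mean, and later-stage-like cells (108 and 62) had 18 of 18 later markers and were led by Cd74 and H2-Eb1, genes of antigen presentation. The last population (28 and 26 cells) was rich in haemoglobin transcripts, which made up 63.8% of its UMIs. The 2 precursor-stage subclusters were divided by library, with 176 Lipo-Clo and 4 Lipo-PBS cells in the first and 19 and 92 in the second, so that the one with 6 later markers held nearly all Lipo-PBS cells of this stage. The second was led by the mitochondrial gene mt-Co1 and Bach2. Clustering without mitochondrial genes, a check added after the data were seen, mixed the libraries and put 98.4% of the dividing, 81.4% of the precursor-stage and 97.1% of the later-stage cells into populations of the same name, and most of the precursor-stage cells that moved were grouped with dividing cells, so the steps between stages and the differences within a stage that moved with the grouping are given both ways. In that grouping precursor-stage subclusters were counted as dividing from their level of cell division genes. Histone genes and Top2a led part of these cells, and Crip1, Col1a2 and Col3a1 led the rest. Whether the cells that moved were dividing was not tested. The precursor-stage share of B-lineage cells, 41.6% (37.1 to 46.2) in Lipo-Clo and 40.5% (34.2 to 47.1) in Lipo-PBS, shifted widely with the clustering settings and is not resolved here.

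**Figure D1:**
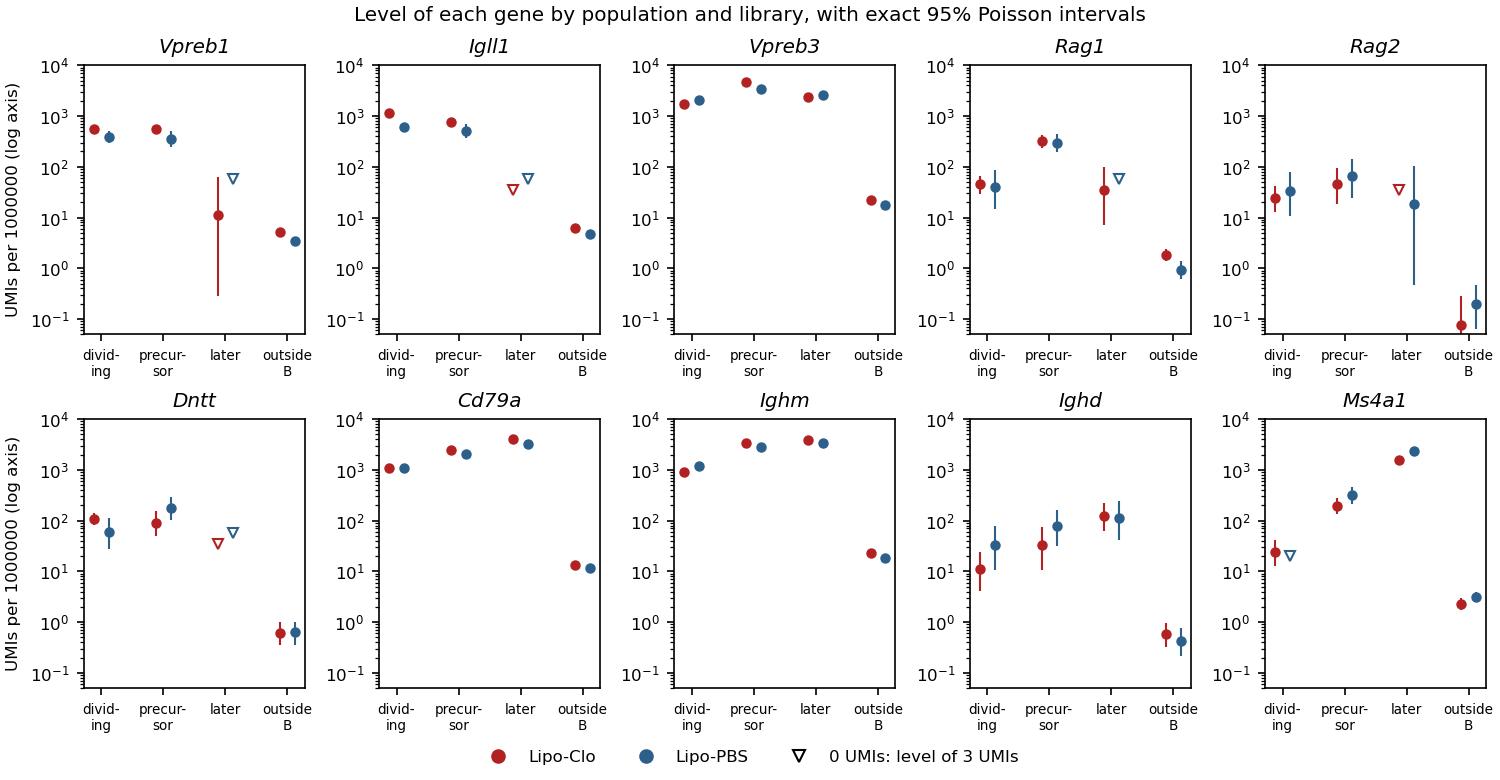
Level of each gene in CPM (log axis) in dividing, precursor-stage and later-stage B-lineage cells and in cells outside the B lineage, for Lipo-Clo (red) and Lipo-PBS (blue), with exact 95% Poisson bars; open triangles stand at the level of 3 UMIs where the count was 0. Vpreb1 and Igll1 lay far higher in the dividing and precursor-stage cells than in the later-stage cells, Rag1 stood highest in the precursor-stage cells and Ms4a1 in the later-stage cells, in both libraries.

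The surrogate light chain genes were found in the dividing and precursor-stage cells. Igll1, the λ5 gene, gave 610 UMIs in dividing cells of Lipo-Clo and 90 of Lipo-PBS, or 1146 and 597 CPM. In precursor-stage cells it gave 116 and 46 UMIs (759 and 511 CPM), and in later-stage cells 0 in both libraries. The exact upper limit for later-stage cells with a UMI is 3.36% in Lipo-Clo and 5.78% in Lipo-PBS (2.78% and 4.84% at 3 counts). It is a limit on detection at this depth and not on expression. With both libraries summed and 3 counts taken as the floor, Igll1 was 48.2-fold higher in dividing than in later-stage cells. It was 31.4-fold higher in precursor-stage than in later-stage cells by the same floor. The exact lower limits of these 2 steps were 5.29 and 4.66 on the log2 scale. Vpreb1 followed the same order, with 547 and 385 CPM in dividing cells, 543 and 355 CPM in precursor-stage cells and a single UMI in later-stage cells. Its count is uncertain because Vpreb2, on the same chromosome, has a transcript that is 86.5% identical over 773 aligned bases, and reads can be shared or dropped between them. Clustered without mitochondrial genes, the precursor-stage level of Igll1 was 268 and 275 CPM and that of Vpreb1 62.5 and 116 CPM, below the main values, while the dividing cells there held 685 and 116 Igll1 UMIs. The Igll1 counts of precursor-stage and later-stage cells were 49 and 0 there, both libraries summed. In either grouping both genes were higher in the dividing cells than in the later-stage cells.

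The surrogate light chain transcripts came from few cells. In the precursor-stage population 24 Lipo-Clo and 12 Lipo-PBS cells gave all Igll1 UMIs, a mean of 4.83 and 3.83 UMIs per positive cell, and in the dividing population 61 and 18 cells gave means of 10 and 5. The 2 genes were found in the same cells. Of the B-lineage cells with a Vpreb1 UMI, 78 of 82 (95.1%, 88.0 to 98.7) in Lipo-Clo and 26 of 29 (89.7%, 72.6 to 97.8) in Lipo-PBS also had one of Igll1, against 3.1% and 2.88% of cells without Vpreb1. Few of these cells carried the maturation genes: 5 of 94 (5.32%) and 4 of 35 (11.4%) cells with a surrogate light chain UMI also had one of Ighd or Ms4a1, compared with 30.1% and 40.1% of the cells without. The cells without include nearly all later-stage cells. Within dividing cells the shares were 4.84% with and 11.8% without in Lipo-Clo, and 5% and 12.1% in Lipo-PBS. Within precursor-stage cells they were 4% and 12.9% in Lipo-Clo, and 16.7% and 23.8% in Lipo-PBS. In each of these pairs the intervals overlapped. Cells with and without these transcripts differ in depth, and the shares were not matched for it.

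Vpreb3, a relative of the surrogate light chain genes whose product binds chains of the receptor inside the cell, was present at every stage. Its level in dividing cells was 1738 CPM (Lipo-Clo) and 2103 CPM (Lipo-PBS), 4637 and 3397 CPM in precursor-stage cells and 2406 and 2546 CPM in later-stage cells. It thus stood highest at the precursor stage, 1.20 above the dividing and 0.76 above the later-stage cells on the log2 scale with both libraries summed, and 1.03 and 0.78 above them in the grouping without mitochondrial genes. A Vpreb3 UMI was found in 89.8% of Lipo-Clo and 83.1% of Lipo-PBS B-lineage cells.

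The recombination genes had low counts, and only Rag1 had a peak that was resolved. Rag1, a subunit of the nuclease that cuts at the recombination signals, gave 24 and 6 UMIs in dividing cells (45.1 and 39.8 CPM), 49 and 27 in precursor-stage cells (320.5 and 299.7 CPM), and 3 and 0 in later-stage cells. It was 2.83 higher on the log2 scale in precursor-stage than in dividing cells (2.20 to 3.49), by 2.83 within Lipo-Clo and 2.91 within Lipo-PBS, the largest step between these populations among the members after that of Ms4a1. In the grouping without mitochondrial genes the step was 2.46 (1.87 to 3.06). With both libraries summed the reverse order held for Igll1, at log2 -0.62 (-0.88 to -0.37) in precursor-stage against dividing cells. Its step was -0.60 (-0.89 to -0.31) within Lipo-Clo and -0.23 (-0.77 to 0.30) within Lipo-PBS, where the order was not resolved. In the other grouping the summed step of Igll1 was larger (-2.05, -2.50 to -1.64). For Vpreb1 the step was -0.11 (-0.43 to 0.20) in the first grouping and -2.91 (-3.76 to -2.17) in the other. Rag2, the partner of Rag1, gave 13 and 5 UMIs in dividing and 7 and 6 in precursor-stage cells, too few to order the stages. Dntt gave 57 and 9 UMIs in dividing cells (107 and 59.7 CPM), 14 and 16 in precursor-stage cells (91.6 and 178 CPM) and 0 in later-stage cells of both libraries. In the grouping without mitochondrial genes Dntt had 125 and 100.3 CPM in dividing cells and 1 and 9 UMIs (8.93 and 130 CPM) in precursor-stage cells, so its order between these populations is not resolved. Of cells with a Rag1 or Rag2 UMI, 18 of 81 (22.2%) in Lipo-Clo and 4 of 41 (9.76%) in Lipo-PBS also had one of Dntt.

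The receptor genes were found throughout. Cd79a, the α signalling chain of the receptor, increased in level from 1063 and 1108 CPM in dividing cells to 2479 and 2031 CPM in precursor-stage and 3980 and 3239 CPM in later-stage cells. Ighm, the μ heavy chain, had 919 and 1168 CPM in dividing, 3348 and 2820 CPM in precursor-stage and 3855 and 3426 CPM in later-stage cells. The steps from dividing to precursor-stage cells, 1.11 for Cd79a and 1.70 for Ighm on the log2 scale, were 1.17 and 1.91 in the other grouping, whereas that of Ighm from later-stage to precursor-stage cells was -0.23 in the first and 0.04 in the other. Both genes were detected together in most cells, since 89.6% of Lipo-Clo and 88.0% of Lipo-PBS cells with Cd79a also had Ighm. Ighd, the δ heavy chain, was rare, with 23 and 22 UMIs in the whole B lineage, and its highest level was in later-stage cells (125 and 112 CPM), with counts too small to order the stages. Ms4a1 was found chiefly in later-stage cells. It gave 13 and 0 UMIs in dividing cells, 30 and 29 in precursor-stage cells (196 and 322 CPM) and 135 and 125 in later-stage cells (1540 and 2340 CPM), so that it was 2.92 lower in precursor-stage than in later-stage cells (log2 -2.92, -3.36 to -2.51, and -2.96 in the other grouping).

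**Figure D2:**
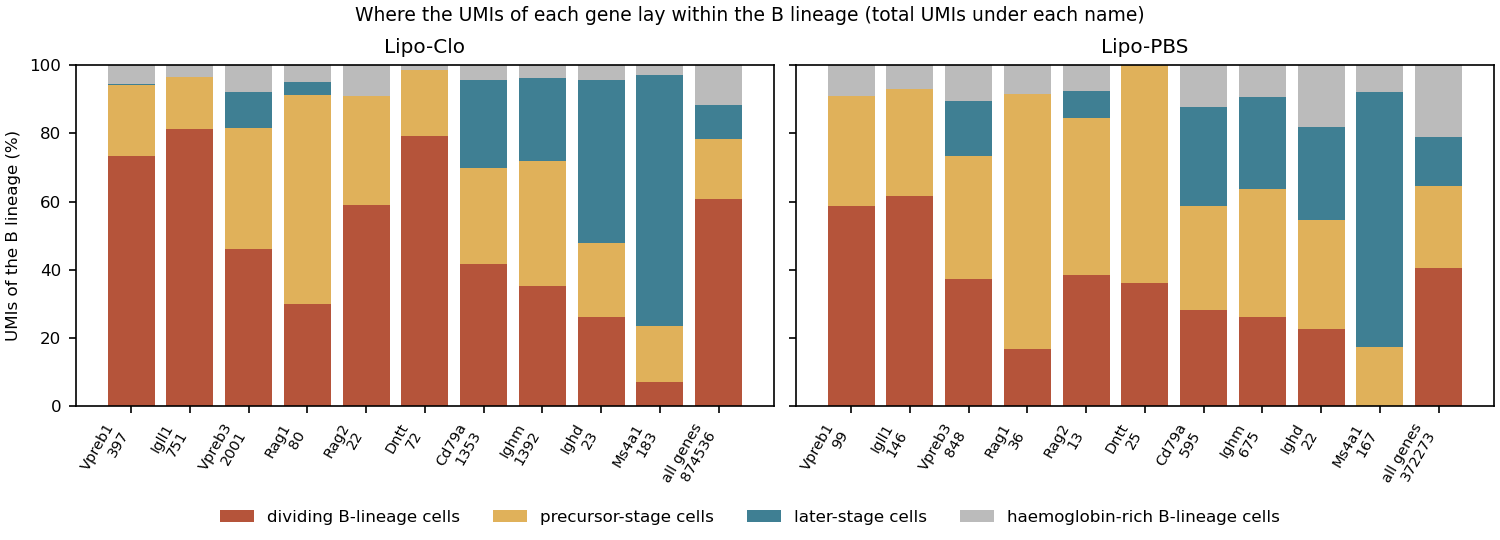
Share (%) of each gene's B-lineage UMIs that lay in the dividing, precursor-stage, later-stage and haemoglobin-rich cells of each library, with the gene's UMI total under its name and the split of all UMIs in the last bar. Later-stage cells held 73.8% and 74.9% of the Ms4a1 UMIs but 10% and 14.3% of all UMIs, and none of the Igll1 UMIs.

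Between the conditions, the surrogate light chain genes were higher and the maturation genes lower in the B lineage of Lipo-Clo. Over the whole B lineage, with Lipo-Clo named before Lipo-PBS, Igll1 gave 751 and 146 UMIs (859 and 392 CPM), a log2 ratio of 1.13 (0.87 to 1.40). Vpreb1 gave 397 and 99 UMIs (454 and 266 CPM), 0.77 higher (0.45 to 1.10). Ms4a1 gave 183 and 167 UMIs (209 and 449 CPM), a log2 ratio of -1.10 (-1.41 to -0.79), and Ighd 26.3 and 59.1 CPM, a ratio of -1.17 (-2.08 to -0.26). The remaining members lay near equality or had wide intervals: Vpreb3 at 0.01 (-0.11 to 0.12), Cd79a at -0.05 (-0.19 to 0.09), Ighm at -0.19 (-0.32 to -0.05), Rag1 at -0.08 (-0.66 to 0.53), Dntt at 0.29 (-0.38 to 1.01) and Rag2 at -0.47 (-1.53 to 0.64). Of the 10 members, 2 were more than 1.5-fold higher and 2 more than 1.5-fold lower in Lipo-Clo. Of all 6383 genes with at least 20 UMIs in the B lineage, 13.5% were higher and 21.3% lower by that rule, so the number of members past the limit is close to the background. The median log2 ratio was -0.07 over the members and -0.07 over all genes.

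These ratios are sums over cells, and the deepest cells weigh most. Dividing cells, with medians of 2531 and 2008 UMIs, held 60.9% of the B-lineage UMIs in Lipo-Clo and 40.5% in Lipo-PBS. When each cell was thinned to 500 UMIs, which left out no cell, Igll1 was found in 12.2% of Lipo-Clo (9.34 to 16) and 8.02% of Lipo-PBS B-lineage cells (4.90 to 12.2), and Vpreb1 in 9.17% (6.71 to 12.2) and 5.49% (2.95 to 9.20). Ms4a1 was found in 17.1% (13.8 to 20.8) and 22.8% (17.6 to 28.7). The directions were as in the sums, but for all 3 genes the intervals of the libraries overlapped. Before thinning, 19.2% and 13.5% of cells had an Igll1 UMI and 22.2% and 29.5% one of Ms4a1. With the 4 populations given the same weights in both libraries, the ratio was 0.86 for Igll1 and -0.61 for Ms4a1.

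**Figure D3:**
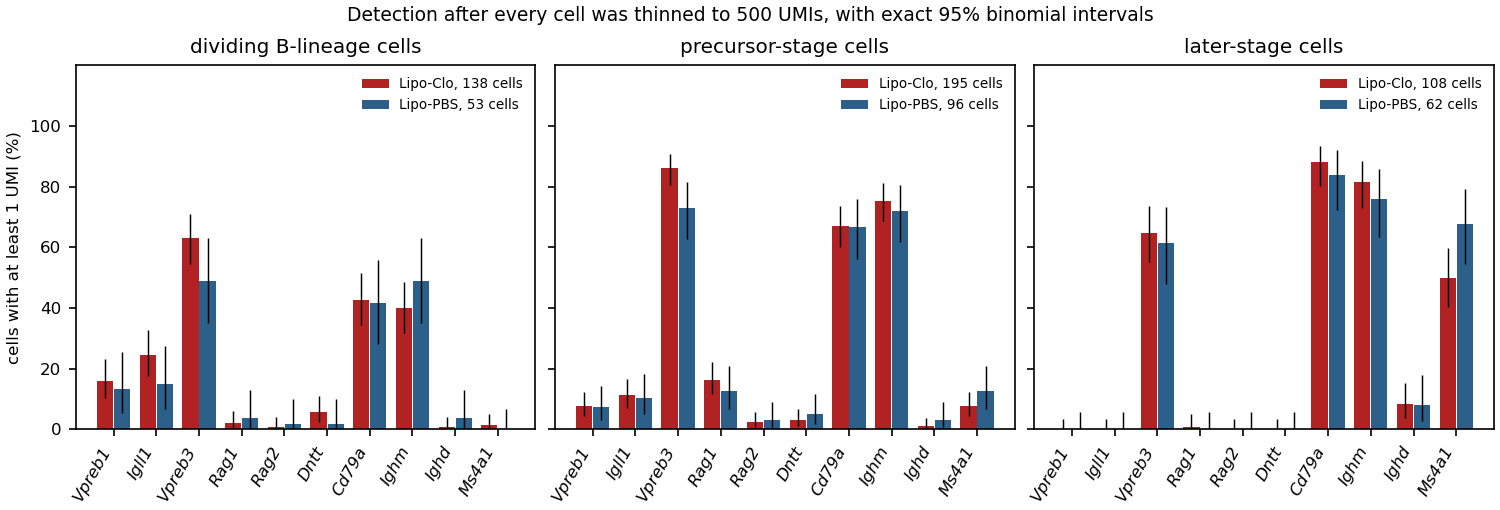
Share (%) of B-lineage cells with at least 1 UMI of each gene after every cell was thinned to 500 UMIs, for Lipo-Clo (red) and Lipo-PBS (blue) by population, with exact 95% binomial bars. The bars of the libraries overlap for Igll1 in dividing cells (24.6% and 15.1%) and for Ms4a1 in later-stage cells (50% and 67.7%).

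Within the dividing cells the surrogate light chain genes kept a higher level in Lipo-Clo, Igll1 by 0.94 (0.62 to 1.28) and Vpreb1 by 0.51 (0.10 to 0.94) on the log2 scale, and by 0.77 and 0.37 when mitochondrial genes were left out of the clustering. Vpreb3 (-0.28, -0.46 to -0.09) and Ighm (-0.35, -0.60 to -0.09) were lower there. After thinning, 24.6% of Lipo-Clo (17.7 to 32.7) and 15.1% of Lipo-PBS dividing cells (6.75 to 27.6) had an Igll1 UMI. Igll1 and Dntt were the 2 of 7 members with at least 20 UMIs that were over 1.5-fold higher, and none was over 1.5-fold lower, where 13.3% and 24.8% of 4216 genes were, 38% in all. The Dntt ratio of 0.84 had an interval from -0.18 to 2.04. The precursor-stage markers, none of them a member, went the other way in these cells, with 0 higher and 6 lower of 7 with enough UMIs and a median of -0.87 (843 and 1460 CPM summed). Il7r, the receptor chain for a growth factor of B cell precursors, was at -1.02 and Myb, a transcription factor gene, at -0.86.

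Within the precursor-stage cells Vpreb3 was 0.45 higher in Lipo-Clo (0.25 to 0.65), by 0.42 without mitochondrial genes in the clustering. Vpreb1 and Igll1 stood at 0.61 (0.01 to 1.25) and 0.57 (0.07 to 1.10), but without mitochondrial genes the ratios were -0.89 (7 and 8 UMIs) and -0.04 (30 and 19 UMIs), so their direction at this stage depends on which cells are grouped. Cd79a (0.29) and Ighm (0.25) were slightly higher, and Dntt was at -0.96 (-2.10 to 0.17), with 1 and 9 UMIs under the other grouping. Of 8 members with enough UMIs, Vpreb1 was past the limit upwards and Dntt and Ms4a1 downwards, against 12.4% and 17.7% of 2213 genes.

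Within the later-stage cells Ms4a1 remained lower in Lipo-Clo, at -0.60 (-0.97 to -0.24), and at -0.56 under the other grouping. It was found in 50% (40.2 to 59.8) of Lipo-Clo and 67.7% (54.7 to 79.1) of Lipo-PBS later-stage cells after thinning. Cd79a was 0.30 higher (0.03 to 0.57) and Ighm 0.17, while Ighd had 11 and 6 UMIs and nearly equal levels. Ms4a1 was the 1 of 4 members with enough UMIs that passed the limit, downwards, where 16.8% of 1181 genes did so and 16.1% passed it upwards.

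**Figure D4:**
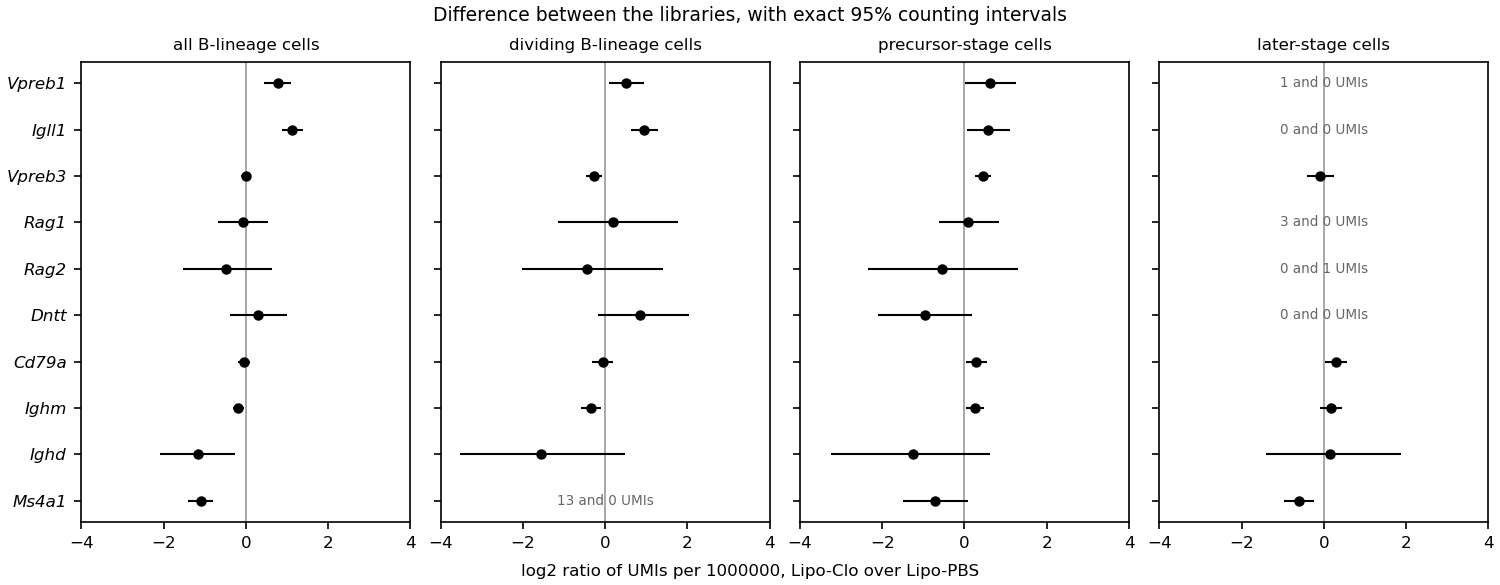
Log2 ratio of Lipo-Clo over Lipo-PBS for each gene in the whole B lineage and in its dividing, precursor-stage and later-stage cells, with exact 95% intervals for counting error. Igll1 lay above 0 in the whole B lineage (1.13) and in dividing cells (0.94), and Ms4a1 below 0 in the whole B lineage (-1.10) and in later-stage cells (-0.60).

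In the small haemoglobin-rich population 5 members had enough UMIs. Igll1 (25 and 10 UMIs) and Vpreb1 (22 and 9) were higher in Lipo-Clo, Cd79a (59 and 72, log2 -0.67) and Ighm (53 and 62, -0.61) were lower, and Vpreb3 was at 0.43. By the 1.5-fold rule 2 were higher and 2 lower, where 25.3% and 13.3% of 525 genes were, 38.7% in all.

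In the whole tissue the difference in B-lineage cell number came on top. Summed over all kept cells, 7 of the 10 members were over 1.5-fold higher in Lipo-Clo and none lower, where 6.54% and 14.3% of 17721 genes were. Igll1 was 1.72 higher and Vpreb1 1.46, Vpreb3 0.94 and Cd79a 0.87, whereas Ms4a1 stood at -0.09 with 243 and 248 UMIs. The B lineage held 82.1% of the Igll1 UMIs of the Lipo-Clo library and 54.7% of those of the Lipo-PBS library, and 75.3% and 67.3% of the Ms4a1 UMIs. Outside it all other cells together had 6.31 and 4.75 CPM of Igll1 and 21.8 and 17.3 CPM of Vpreb3. Ighm was above the mesenchymal background in myeloid clusters, with a UMI in 16.7% and 14.5% of macrophages and monocytes (68.4 and 86.4 CPM, median depths 2738 and 2642 UMIs) and in 14.7% and 13.1% of granulocyte-monocyte progenitors (3931 and 1712 UMIs), against 2.83% and 1.92% of mesenchymal cells.

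Markers of other cell types also differed between the B-lineage cells of the libraries. Neutrophil markers summed to 670 CPM for Lipo-Clo against 124 CPM for Lipo-PBS, all 6 of the 9 genes with enough UMIs being higher, S100a9 among them with 271 and 21 UMIs, while 1 of the 9 was at 0 in Lipo-Clo and 3 were at 0 in Lipo-PBS. Erythroid markers summed to 75752 and 140260 CPM, mesenchymal markers to 3061 and 2203 CPM, and macrophage and monocyte markers to 26.3 and 37.6 CPM. Of the erythroid UMIs (66248 and 52215), 64380 and 50489 lay in the haemoglobin-rich cells, where the level was 633449 and 646864 CPM. Mesenchymal markers had 3490 and 2203 CPM in dividing, 3682 and 2709 CPM in precursor-stage and 1848 and 3014 CPM in later-stage cells. The part of all these markers in the members' ratios was not tested. Subtracting the level found in the other cells left Igll1 at 1.14 and Ms4a1 at -1.11, and without the haemoglobin-rich cells the summed ratio was 0.71 for Vpreb1, Igll1, Rag1, Rag2 and Dntt together and -1.18 for Ighd and Ms4a1 together.

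Among other genes of the pathway, taken from lists, few were past the limit upwards in Lipo-Clo. Of 16 genes of pre-B receptor signalling, none was over 1.5-fold higher in the B lineage of Lipo-Clo and 7 were lower, with a median log2 ratio of -0.55 (13.5% and 21.3% of all genes, median -0.07). Bach2, a repressor that acts at the pre-B cell checkpoint, was at -1.16 (481 and 459 UMIs), the kinase gene Lyn at -1.12, Syk at -0.58 and Cd79b at -0.28. Of 16 transcription factor genes of the lineage, none was higher and 4 were lower, a count close to the 21.3% of all genes, with a median of -0.39. Ebf1, which specifies the lineage, was at -0.66, Ikzf1 at -0.24, Tcf3 at -0.23 and Spib at -0.36. By population the median of the transcription factor list was -0.65 in dividing, -0.0006 in precursor-stage and -0.16 in later-stage cells. For pre-B receptor signalling the medians were -0.69, -0.15 and -0.99, and over all genes -0.12, -0.0015 and 0.07.

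Of 9 V(D)J end-joining genes with enough UMIs, none was higher and 1 was lower, with a median of -0.03. Over all genes 13.5% were higher and 21.3% lower, the background for the whole-lineage counts of this paragraph. Of the 4 light chain constant genes, 1 was lower and none was higher: Igkc, the κ chain, was at -0.10, and the λ genes Iglc1, Iglc2 and Iglc3 were at -0.58, -0.75 and -0.44. In dividing cells Iglc1 gave 34 UMIs (Lipo-Clo) and 0 UMIs (Lipo-PBS), Iglc2 32 and 0, and Iglc3 34 and 1. Igkc was at 0.19 there. Of the 4 genes 3 were over 1.5-fold higher in dividing cells and none lower, against 13.3% and 24.8% of 4216 genes. The number of cells behind these UMIs was not examined. In precursor-stage cells Igkc was at 0.59 (0.40 to 0.78), and Iglc1, Iglc2 and Iglc3 were at -0.65, -0.40 and -0.13. In later-stage cells Igkc was at 0.21 and these λ genes at 0.56, -0.14 and -0.02. Of 16 cell division genes, 3 were higher and none lower in the whole B lineage, with a median of 0.16, where 13.5% of all genes were higher. Ube2c was at 0.86 and Birc5 at 0.44, while Top2a (0.05) and Pcna (0.26) lay closer to 0. Within the dividing cells 1 of the 16 was higher and 1 lower, against 13.3% and 24.8% of all genes there. Their median was -0.31, with Top2a at -0.45 and Pcna at -0.24, whereas Ube2c was at 0.32 (0.07 to 0.58) and Birc5 at 0.04. Of 10 genes of dissociation stress with enough UMIs, 1 was higher and 2 lower (median -0.26).

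Genes whose levels ran most like those of the members were sought over 24 clusters of at least 50 cells. For the summed Vpreb1, Igll1, Rag1, Rag2 and Dntt they were Bfsp2 (Pearson r 0.957 on log2(CPM + 10)), Irf4 (0.953), Slc12a3 (0.947), Slamf6 (0.947) and 2010309G21Rik (0.946). For the summed Ighd and Ms4a1 they included Spib (0.978), Pou2af1 (0.976), Agbl1 (0.974) and Gm37065 (0.969). The clusters share 2 libraries, and the B lineage is 1 of the 24 points, so these values rest largely on it.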

How the data were processed

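The deposited matrices hold raw UMI counts per gene and cell, which the authors made from 10x libraries of 1 Lipo-Clo and 1 Lipo-PBS sample. The file headers name Cell Ranger 8.0.0, whereas the submitters' processing notes list Cell Ranger 3.1.0, Seurat 3.1.1 and GRCm39. The members and gene lists were chosen with earlier results of these data known, and the rule that names the stages was settled after the subclusters were seen.

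Cells were kept if 200 or more genes were detected and mitochondrial genes took no more than 20% of UMIs. Automatic Scrublet calls marked 0 and 1 cells, so the 632 and 633 cells with the highest doublet scores were left out instead. With scanpy 1.11.5, counts were scaled to 10000 per cell and clustered (2000 variable genes, 30 components, 20 neighbours, Leiden resolution 1), without the members, Vpreb2 and immunoglobulin genes. The B lineage was subclustered at resolution 0.5 with 1000 variable genes and 15 components. UMIs were summed per library and population and divided by all UMIs. Ratios have exact 95% intervals from the binomial split of the summed counts, and genes with at least 20 UMIs count as higher or lower past 1.5-fold. Cells were thinned to 500 or 1000 UMIs. Scalings by edgeR 4.0.16 (TMM) and DESeq2 1.42.0 were alternatives for library size alone. The ratio script was checked on simulated counts of the B-lineage comparison (6383 genes, 200 changed): 96.1% of its intervals held the true value and 97.0% of the changed genes had the right direction. The simulated counts were independent Poisson draws, as the intervals assume. The check therefore covers the arithmetic only, since UMIs that come together in a cell were not simulated. Every gene named is a member, one of the genes most like the members, one of up to 4 genes per list with the most UMIs, or a gene that leads a subcluster.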

Additional observations from a re-analysis of the deposited data

Results flagged for a closer look

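Vpreb3 and Ighm pointed in opposite directions in 2 populations of the B lineage. Vpreb3 was higher in Lipo-Clo in precursor-stage cells (log2 ratio 0.45) and lower in dividing cells (-0.28). Ighm was higher in precursor-stage cells (0.25) and lower in dividing cells (-0.35). With 1 library per condition the difference between the populations was not tested.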

How the results depend on the processing

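No value has a replicate check, and no library could be left out. No paired analysis was possible because there is 1 library on each side. Depth limits Rag2, Dntt and Ighd most, and Igll1 and Vpreb1 rest on few cells. Igll1 and Vpreb1 stayed above 0 in 20 of 20 alternatives, and Ms4a1 and Ighd below 0 in 19 of 20, the exception being the B lineage called from 3 UMIs over the marker list. The causes of the shifts below were not tested. The stage shares count the cells of named subclusters, whose names and composition can change with the setting.

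The log2 ratio of the B-lineage share (0.99) was 0.69 under a stricter cell filter (500 genes or more, mitochondrial share up to 10%), -0.49 with B cells called from 3 marker UMIs (1401 and 1966 cells) and 0.37 with that call without Ebf1 (737 and 570 cells), a gene with 17.6% of its UMIs in the B lineage. The 2 calls moved Vpreb1, Igll1, Rag1, Rag2 and Dntt summed (0.82) to 2.17 and 1.59, and Ighd and Ms4a1 summed (-1.11) to 0.57 and -0.31. Ighm turned to 1.42 and 0.53 under them, Ighd to 0.75 and Ms4a1 to 0.54 under the first.

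The summed precursor genes were 0.51 and the maturation genes -1.44 with cells thinned to 1000 UMIs (269 and 129 cells left out), 0.41 and -0.62 at 500 UMIs, 0.43 and -0.62 as a mean over cells, and 0.63 and -0.64 with the same mixture of populations. The maturation genes were at -1.48 under the stricter cell filter. Ighm turned to 0.16 at 500 UMIs and to 0.20 as a mean over cells.

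The numbers of genes higher and lower in the B lineage (863 and 1362) were 386 and 353 at 1000 UMIs, 405 and 540 at 500 UMIs, 272 and 534 with a 2-fold limit and 2674 and 4903 with no filter on low counts.

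The precursor-stage share of B-lineage cells in Lipo-Clo was 67.7% with doublets kept, 64.6% with every cell, 69.0% with mitochondrial genes out under the original naming rule, which there took in dividing cells, and 70.6% with subclusters at resolution 1. In Lipo-PBS it was 25%, 58.1%, 60.9% and 60.8% under these, and 20.2% under the stricter filter, 2.13% and 1.70% at Leiden resolutions 0.5 and 2, 14.0% with the members kept for clustering and 26.6% with each library clustered alone. The later-stage share in Lipo-Clo (23.0%) was 17.4% under the stricter filter and 30.2% with each library alone. In Lipo-PBS (26.2%) it was 0.806% with doublets kept, 1.09% under the stricter filter, 1.28% and 0.851% at resolutions 0.5 and 2, and 18.7% with the members kept.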
